A study of Chlorocebus aethiops with 3 samples.

Results

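The messages described here encode proteins of G2 phase and mitosis, and the question was how far each lay in heavy polysomes of COS-7 cells after knockdown of RNA helicase A (RHA, gene DHX9). COS-7 cells come from African green monkey kidney, look like fibroblasts and carry the SV40 large T antigen. The set was defined by 33 human RefSeq mRNA identifiers of cyclins, CDK1 and its regulators, mitotic kinases, checkpoint proteins, centromere proteins, kinesins and proliferation markers, and no threshold on a measured value entered the definition. Each identifier was represented by its brightest probe. Of the 33 identifiers, 27 were on the array and 26 were tested, among 32695 identifiers on the array and 14520 tested. The 6 that the array did not carry under the listed identifier were NM_003600 of AURKA, NM_001168 of BIRC5, NM_021953 of FOXM1, NM_004856 of KIF23, NM_007019 of UBE2C and NM_004358, a second transcript of CDC25B. The files give identifiers and no gene symbols. The genes are named from the definition of the set, and the pairing of each identifier with a single symbol follows the usual RefSeq assignment, which the files do not state.

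Knockdown cells had been transfected, split and transfected again with siRNAs against the coding region of human RHA at 0.5 nM, and control cells with scrambled siRNA at the same concentration. Both were kept for 4 h in medium without serum and then for 24 h in medium with 10% serum. Cytoplasmic lysates were spread on sucrose gradients of 15% to 45%, and the RNA of the heavy polysome fractions was pooled. On each of 3 arrays of 1 slide, labelled as biological replicates, knockdown RNA carried Cy5 and control RNA carried Cy3. The dyes were swapped on 0 of the 3 arrays, so dye and knockdown cannot be told apart. Human sequence underlies the probes, whereas the RNA was monkey RNA. Each value below is a log2 ratio of knockdown over control within an array, relative to the loess curve at that brightness. It compares an RNA with others of like brightness in heavy polysome RNA and is not a share of that RNA. A change of the amount of the RNA and a change of its ribosome loading cannot be told apart. In these bulk lysates, fewer cells in G2 or mitosis and less RNA per cell cannot be told apart either.

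Entry into mitosis is driven by CDK1 bound to cyclin B. WEE1 holds CDK1 back by phosphorylation and CDC25 phosphatases release it. The spindle checkpoint then blocks the anaphase-promoting complex until every kinetochore is attached, after which CDC20 and the complex destroy cyclin B and securin. Most of these messages are transcribed late in the cycle and are a textbook signature of dividing cells.

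On its brightest probe the message targeted by the siRNAs was below 0 on every array and did not pass the test. The brightest RHA probe (NM_001357) gave -0.041, -0.20 and -0.60 on replicates 1, 2 and 3, and its mean was -0.28 (limma adjusted p = 0.221). A second probe gave -0.12, -0.12 and -0.76, with a mean of -0.33 (limma fit per probe, adjusted p = 0.210). The dimmest probe gave -0.29, 0.13 and -0.12, and was too dim to be tested. The knockdown channel had 45.5% to 53.1% of probes well above background, and the control channel had 37.5% to 50.7%. Of 5 marker identifiers of fibroblast-like cells 2 were on the array, and both were well above background in both channels of all arrays. Their means were -0.42 and -0.82, and 1 of the 2 fell, as did 9.33% of all tested identifiers. Their part in the results below was not tested. Of 8 markers of other cell types, 0 of the 3 tested were called (limma, 0 also at an unadjusted p under 0.05), against 19.2% of all tested identifiers called. Of the same 8 markers (blood, liver, epithelium, endothelium, pancreas and glia), 3 were well above background on all arrays in the knockdown channel and 2 in the control channel, and 5 on no array in either channel. Those marker identifiers were paired with genes from general knowledge and not from a table.

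Across the 26 tested mitotic messages, 3 rose and 1 fell (limma, adjusted p under 0.05 over 14520 identifiers), or 15.4%, and 22 did not pass. CKS2, CDKN3 and CENPE rose, and MAD2L1 fell. Of all tested identifiers, 19.2% were called in either direction, 9.9% as higher and 9.33% as lower, so the share of mitotic messages called lay near the background. All 26 messages were well above background on all arrays in the knockdown channel and 22 in the control channel. The other 4, CDKN3, CDC25C, KIF11 and TOP2A, entered the test through the knockdown channel. With both channels required above background, 22 messages were tested, of which 2 rose and 2 fell, while 24.4% of all identifiers then tested were called. The median log2 ratio of the 26 was -0.020, against 0.010 over all tested identifiers. By array the medians of the mitotic messages were -0.061, 0.030 and -0.016 on replicates 1, 2 and 3, against 0.0049, 0.021 and 0.017 over all tested identifiers. The set as a whole was centred where the array was, and its few large values lay on both sides of 0. Of all calls, 51.5% were higher. With each array centred on the median of all probes instead of loess this share was 98.4%, and the median was 0.34 for the mitotic messages and 0.31 for all tested identifiers, so values under that centring below are relative to this shift. Centring on the tested probes made 73.4% of all calls higher.

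**Figure D1:**
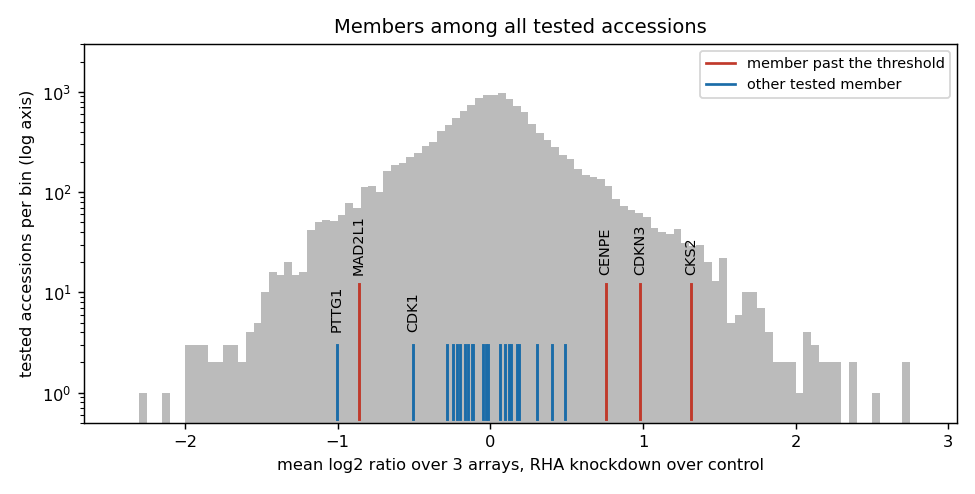
Histogram of the mean log2 ratio of knockdown over control over 3 arrays for 14520 tested identifiers (grey, counts on a log axis), with the 26 tested mitotic messages as vertical lines. CKS2, CDKN3, CENPE and MAD2L1, past the threshold (red), lie out in the tails, PTTG1 and CDK1 lie low without passing, and the other members crowd around 0.

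On all 3 arrays 7 of the 26 messages were above 0, as were 31.1% of all tested identifiers, and 10 were below 0, as were 27.5% of all tested identifiers. The remaining 9 had both signs. The median SD over the 3 arrays was 0.18 for the mitotic messages and 0.20 for all tested identifiers. The SD ranged from 0.038 for CCNB1 to 0.79 for CKS2, so the member with the largest mean was also the one on which the arrays differed most. In the knockdown channel the normalised signal, described below, was close on replicates 1 and 2 for several messages. It was 428 and 425 for CDK1, 309 and 310 for CENPE, and 2892 and 2758 for PTTG1. The control channel had 493 and 655, 202 and 159, and 9149 and 5630. For CDC25C and PLK1 the control channel was the closer one. Whether the knockdown RNA of those arrays was independent was not tested, and each SD, interval and p takes the 3 arrays as independent.

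**Figure D2:**
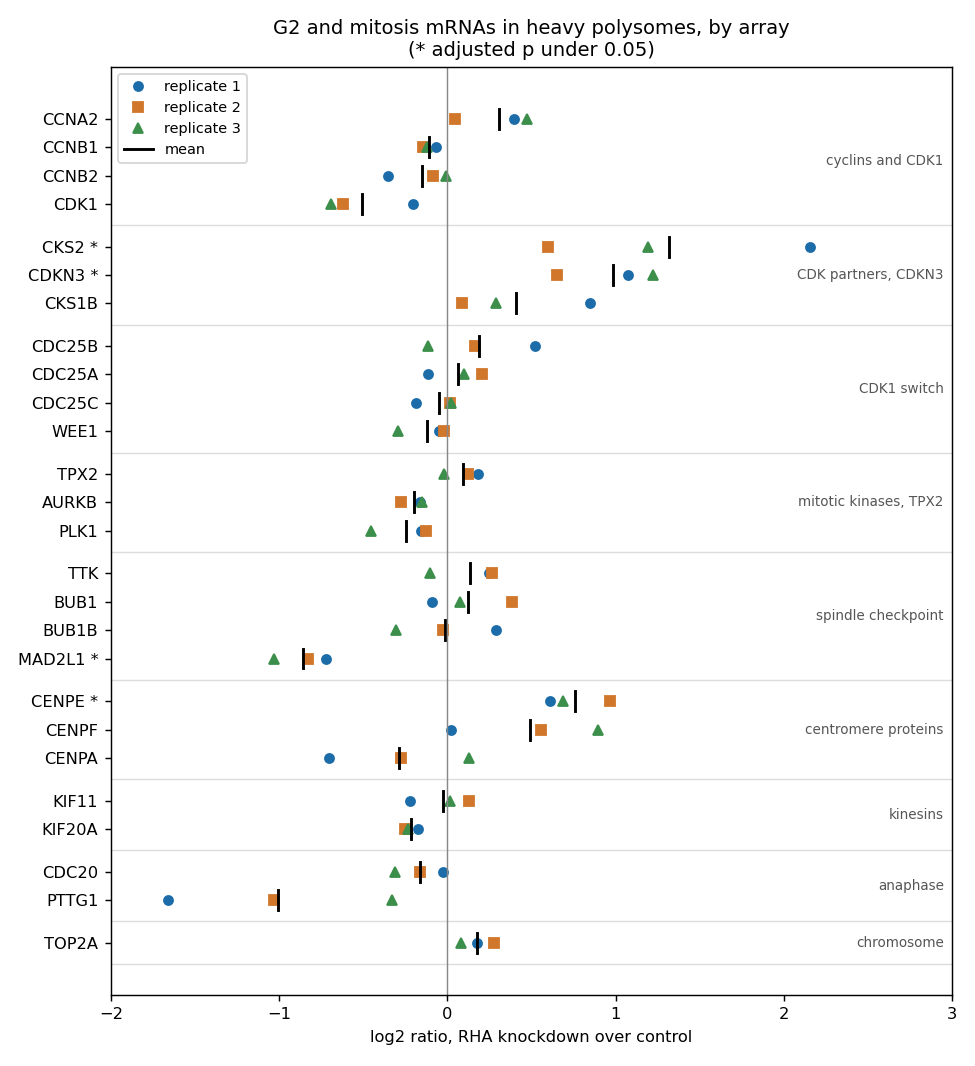
Log2 ratio of knockdown over control on each of 3 arrays (circle, square and triangle) with the mean (black bar) for the 26 tested mitotic messages, grouped by role. Asterisks mark the 4 with adjusted p under 0.05; for CKS2, CDKN3 and CENPE all 3 arrays lie above 0, and for MAD2L1 all 3 lie below 0.

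None of the 3 cyclins nor CDK1 passed, and CCNA2 lay on the other side of 0 from the rest. CDK1 (NM_001786), the kinase that drives mitotic entry, gave -0.20, -0.62 and -0.69 on replicates 1, 2 and 3. The normalised signal, a linear value that includes the background offset, was 428, 425 and 539 in knockdown cells, against 493, 655 and 870 in control cells. The knockdown channel was the lower one on each array, and the channels overlapped across arrays. The mean log2 ratio was -0.51 ± 0.26 (SD, n = 3), equal to 0.704 times control, and missed the threshold (limma adjusted p = 0.0567, 95% interval -0.85 to -0.17). It passed with no background correction and without replicate 1 (mean -0.66, limma adjusted p = 0.0360), and it stood at 0.12 with each array centred on the median of all probes. CCNA2 (NM_001237), the cyclin of S phase and early mitosis, gave 0.39, 0.046 and 0.47, and averaged 0.30 ± 0.23 (SD, n = 3). Its arrays were all above 0 and it did not pass (limma adjusted p = 0.153), except with centring on all probes, where the mean was 0.73 with limma adjusted p = 0.0308.

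The mitotic cyclins CCNB1 and CCNB2, partners of CDK1, lay nearer to 0 and did not pass. CCNB1 (NM_031966) had -0.069, -0.14 and -0.12, and CCNB2 (NM_004701) had -0.35, -0.085 and -0.0089. The difference CCNB1 minus CCNB2 averaged 0.038 ± 0.21 (SD, n = 3), less than its spread over the arrays. On 3 arrays the smallest p of an exact sign-flip test is 0.25, so differences between related members are given without a test.

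CKS2 and CDKN3, which act on CDKs directly, had the largest rises of the set. CKS2 (NM_001827), a small subunit that docks cyclin-dependent kinases to their substrates, gave 2.16, 0.60 and 1.19 on replicates 1, 2 and 3. The normalised signal was 1529, 1366 and 1967 in knockdown cells, against 343, 901 and 863 in control cells on replicates 1, 2 and 3. The knockdown channel exceeded the control channel on every array and the channels did not overlap, with the widest gap on replicate 1. The mean log2 ratio was 1.32 ± 0.79 (SD, n = 3), a 2.49-fold rise with limma adjusted p = 0.0376 and a 95% interval of 0.57 to 2.06. CKS2 passed in 13 of 15 alternative settings. The call was lost when dim probes were kept in the test (limma adjusted p = 0.109) and when replicate 2 was left out. Centring on all probes gave 2.02.

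CDKN3 (NM_005192), a phosphatase that removes the activating phosphate from CDKs, gave 1.07, 0.65 and 1.22. The normalised signal was 222, 222 and 268 in knockdown cells and 105, 142 and 115 in control cells, so the channels did not overlap. The mean log2 ratio was 0.98 ± 0.30 (SD, n = 3), a 1.97-fold rise with limma adjusted p = 0.0180. Its probe was well above background on 3 of 3 arrays in the knockdown channel and on 2 of 3 in the control channel. It thus entered the test through the channel in which it was high, and under a filter on both channels it was not tested. The ratio moved with the background correction, to 1.70 at a normexp offset of 0 and 1.91 in Agilent's processed log ratio.

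CKS1B (NM_001826), the close relative of CKS2 and a cofactor of the ubiquitin ligase that holds SKP2, gave 0.85, 0.086 and 0.29, averaging 0.41 ± 0.39 (SD, n = 3), and did not pass (limma adjusted p = 0.157). It passed with median centring, at 0.91 on the tested probes and 1.23 on all probes. CKS1B minus CKS2 was -1.31, -0.51 and -0.90 on the 3 arrays, averaging -0.91 ± 0.40 (SD, n = 3), so CKS2 had the higher ratio on each array. The other probes of CKS1B gave means of 0.48 ± 0.61 and 0.012 ± 0.47 (SD, n = 3 each). The third of these probes, the dimmest, was at -0.53 on replicate 1, where the brighter ones were at 0.85 and 1.17, so the probes of CKS1B disagreed on that array.

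**Figure D3:**
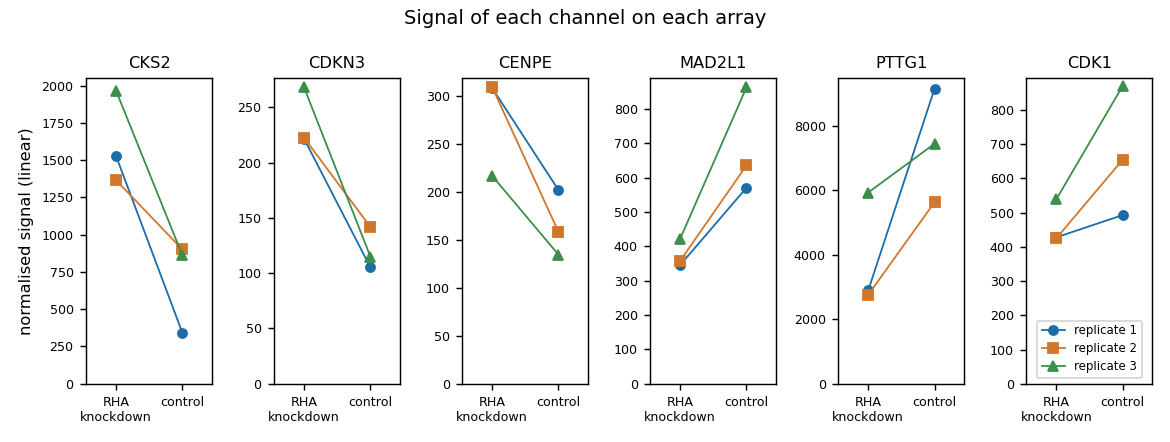
Normalised signal on a linear scale in the knockdown channel (left) and the control channel (right) of each array, joined by a line per replicate, for 6 messages. Lines run down to the right for CKS2, CDKN3 and CENPE, which were higher in knockdown cells, and up to the right on all arrays for MAD2L1, PTTG1 and CDK1; levels cannot be compared between messages.

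The messages that set the CDK1 switch did not pass the test. WEE1 (NM_003390), the inhibitory kinase, had -0.053, -0.020 and -0.30, averaging -0.12 ± 0.15 (SD, n = 3). The activating phosphatases CDC25A (NM_001789), CDC25B (NM_021873) and CDC25C (NM_001790) had mean log2 ratios of 0.064, 0.19 and -0.051, each with both signs among its arrays. CDC25A stood at -0.11, 0.20 and 0.10 on replicates 1, 2 and 3, CDC25B at 0.52, 0.16 and -0.12, and CDC25C at -0.18, 0.013 and 0.019. Replicate 1 was thus the high array for CDC25B and the low one for the other phosphatases. WEE1 minus CDC25A averaged -0.19 ± 0.23 (SD, n = 3), and CDC25A minus CDC25C averaged 0.11 ± 0.066 (SD, n = 3), positive on 3 of 3 arrays with the brightest probes. The second CDC25A probe, at 0.13, -0.30 and 0.18, was negative on replicate 2, where the brightest was positive. CDC25C was well above background on 2 of 3 arrays in the control channel, and the 95% intervals of these 4 messages lay within -0.40 and 0.56.

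The mitotic kinases and TPX2 did not pass. PLK1 (NM_005030), which acts at centrosomes and kinetochores, had -0.16, -0.13 and -0.45 on its brightest probe, a mean of -0.25 (limma adjusted p = 0.194). Its other probe had 0.45, 0.18 and 0.14, a mean of 0.26, so the direction of PLK1 depended on the probe. AURKB (NM_004217), the kinase of the chromosomal passenger complex, had -0.17, -0.28 and -0.15, a mean of -0.20 (limma adjusted p = 0.219). TPX2 (NM_012112), a spindle assembly factor that activates Aurora A, had 0.18, 0.12 and -0.022, with both signs among its arrays.

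Within the spindle checkpoint, MAD2L1 fell while the other messages did not pass. MAD2L1 (NM_002358) encodes Mad2, which binds and inhibits CDC20 at unattached kinetochores. It gave -0.72, -0.83 and -1.03 on replicates 1, 2 and 3. The normalised signal was 346, 358 and 422 in knockdown cells, against 571, 636 and 863 in control cells. The 3 arrays were close together and the channels did not overlap. The mean log2 ratio was -0.86 ± 0.16 (SD, n = 3), equal to 0.551 times control (limma adjusted p = 0.0160, 95% interval -1.14 to -0.58). The call was lost with each array centred on the median of all probes, where the mean was -0.25 and replicate 2 stood at 0.17, and when replicate 2 was left out. Centring on the tested probes gave -0.57 and kept the call.

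BUB1 (NM_004336), a kinase of the same checkpoint, and its relative BUB1B (NM_001211) had means of 0.12 ± 0.24 and -0.014 ± 0.30 (SD, n = 3 each). BUB1 stood at -0.089, 0.38 and 0.075 on the 3 arrays, and BUB1B at 0.29, -0.024 and -0.30. TTK (NM_003318), the kinase that starts checkpoint signalling, had 0.24, 0.26 and -0.10. Each of these 3 messages had both signs among its arrays. BUB1 minus BUB1B was -0.38, 0.41 and 0.38, so their order turned on replicate 1.

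Among the centromere proteins, CENPE rose. CENPE (NM_001813) is the kinesin motor that carries chromosomes to the spindle equator. It gave 0.61, 0.97 and 0.69 on replicates 1, 2 and 3. The normalised signal was 309, 310 and 217 in knockdown cells and 202, 159 and 135 in control cells, so the channels did not overlap. Its mean log2 ratio was 0.76 ± 0.19 (SD, n = 3), a 1.69-fold rise with limma adjusted p = 0.0198. Centring on all probes gave 1.23 and Agilent's processed log ratio 1.26. CENPE passed in 14 of 15 alternative settings, the exception being the fit without replicate 2, where limma adjusted p was 0.125.

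CENPF (NM_016343), a large kinetochore and nuclear matrix protein, had 0.023, 0.55 and 0.90, averaging 0.49 ± 0.44 (SD, n = 3), and did not pass (limma adjusted p = 0.124). It passed in 7 of the 15 alternative settings, among them the fit without replicate 1, with a mean of 0.72 and limma adjusted p = 0.0384. Its second probe, which was dimmer, had -0.046, 0.051 and 0.24. CENPA (NM_001809), the histone H3 variant that marks centromeres, had -0.71, -0.28 and 0.13, with values on both sides of 0.

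The kinesins measured did not pass. KIF11 (NM_004523), the motor that pushes spindle poles apart, had -0.22, 0.13 and 0.015, and its second probe had -0.036, 0.098 and -0.0043. KIF20A (NM_005733), a motor of cytokinesis, had -0.17, -0.25 and -0.23, averaging -0.22 ± 0.042 (SD, n = 3) with limma adjusted p = 0.177 and a 95% interval of -0.47 to 0.027. All 3 arrays lay below 0 and close together in the main processing. The mean of KIF20A stayed below 0 in 14 of 15 alternative settings, down to -0.47 in Agilent's processed log ratio. It was 0.16 with centring on all probes. The filter settings and the variance models reused the main ratio, and leaving out an array could not turn the sign, so those settings could not differ in direction.

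PTTG1 had the lowest mean of the set and missed the threshold by a narrow margin. PTTG1 (NM_004219) is securin, which holds separase inactive until anaphase. It gave -1.66, -1.03 and -0.33 on replicates 1, 2 and 3. The normalised signal was 2892, 2758 and 5930 in knockdown cells and 9149, 5630 and 7444 in control cells, so the channels overlapped across arrays although the control channel was the higher one on each. The mean log2 ratio was -1.01 ± 0.67 (SD, n = 3), equal to 0.498 times control (limma adjusted p = 0.0502). The probe's brightness percentile among those tested was 96.3. Centring each array on the median of all probes gave -1.03, 0.26 and 0.30, and centring on the tested probes gave -1.36, -0.27 and 0.19. It passed in 8 of 15 alternative settings. Without replicate 3 the mean was -1.35 with limma adjusted p = 0.00872, and without replicate 1 it was -0.68 with limma adjusted p = 0.0811. CDC20 (NM_001255), which activates the anaphase-promoting complex, had -0.025, -0.16 and -0.31, all below 0, and did not pass (limma adjusted p = 0.332).

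The classical markers of proliferation were hardly measured. TOP2A (NM_001067), the topoisomerase that untangles chromosomes, was well above background on 3 of 3 arrays in the knockdown channel and on 0 of 3 in the control channel. It did not pass (limma adjusted p = 0.277, 95% interval -0.082 to 0.44), and its direction depended on the processing. TOP2A had a mean log2 ratio of 0.18 in the main processing, 1.03 at a normexp offset of 0, 1.47 in Agilent's processed log ratio, and -0.15 with centring on the tested probes. It passed at offset 0, in the processed log ratio and where the variance followed intensity. TOP2A entered the test through the knockdown channel alone, and under a filter on both channels it was not tested. With the control channel not well above background, none of these ratios is a measured fold change. The MKI67 probe (NM_002417), for the antigen Ki-67, was well above background on 0 of 3 arrays in either channel and was not tested.

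**Figure D4:**
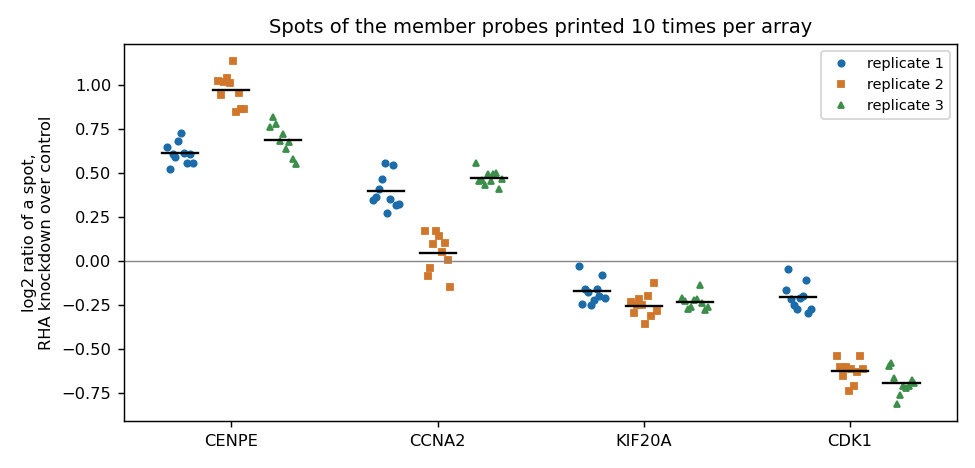
Log2 ratio of single spots (points) and their mean (bar) on each array for the 4 mitotic messages whose probe is printed 10 times. Spots of 1 array lie close together, and the spots of 1 array do not overlap those of the others for CDK1 (replicate 1), CENPE and CCNA2 (replicate 2 in both).

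Repeated spots give the spread within an array. CDK1, CENPE, KIF20A and CCNA2 each have a probe printed 10 times. For CDK1 the SD between spots was 0.079, 0.064 and 0.070 on the 3 arrays, against 0.26 between arrays. For CENPE it was 0.061, 0.093 and 0.090, against 0.19 between arrays, and every spot used was above 0. For CCNA2 it was 0.097, 0.11 and 0.041, against 0.23 between arrays, and on replicate 2 the spots ran from -0.15 to 0.17. For KIF20A the SD between spots was 0.041 to 0.071, against 0.042 between arrays. The SD between spots is of single spots and the SD between arrays is of means over spots, so the 2 are unlike measures.

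Further genes of the same processes were taken from lists put together by symbol and identifier, whose pairing the files do not give, so they are reported as counts, to be read against the 19.2% of all tested identifiers that were called, 9.9% higher and 9.33% lower. Of 31 tested identifiers of further G2 and mitosis genes, 2 rose and 2 fell (12.9%), with a median log2 ratio of 0.017. These were NM_018098, with 1.78, 1.28 and 0.64, NM_012484, with 0.64, 0.82 and 0.90, NM_002497, with -0.65, -0.44 and -0.74, and NM_018492, with -0.87, -0.70 and -0.65 (limma adjusted p of 0.0261, 0.0171, 0.0256 and 0.0176). Of 5 tested condensin and cohesin subunits, 0 passed in the limma fit, while 1 was higher at an unadjusted p under 0.05. Of 10 tested subunits and partners of the anaphase-promoting complex, 3 rose and 2 fell (50%), with a median log2 ratio of 0.045. Of 8 regulators of cell cycle transcription, 2 rose and 0 fell (25%). Of 13 tested S phase genes, 1 rose and 3 fell (30.8%), with a median log2 ratio of -0.060. These lists are short, and none of the differences between them and the mitotic messages was tested.

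**Figure D5:**
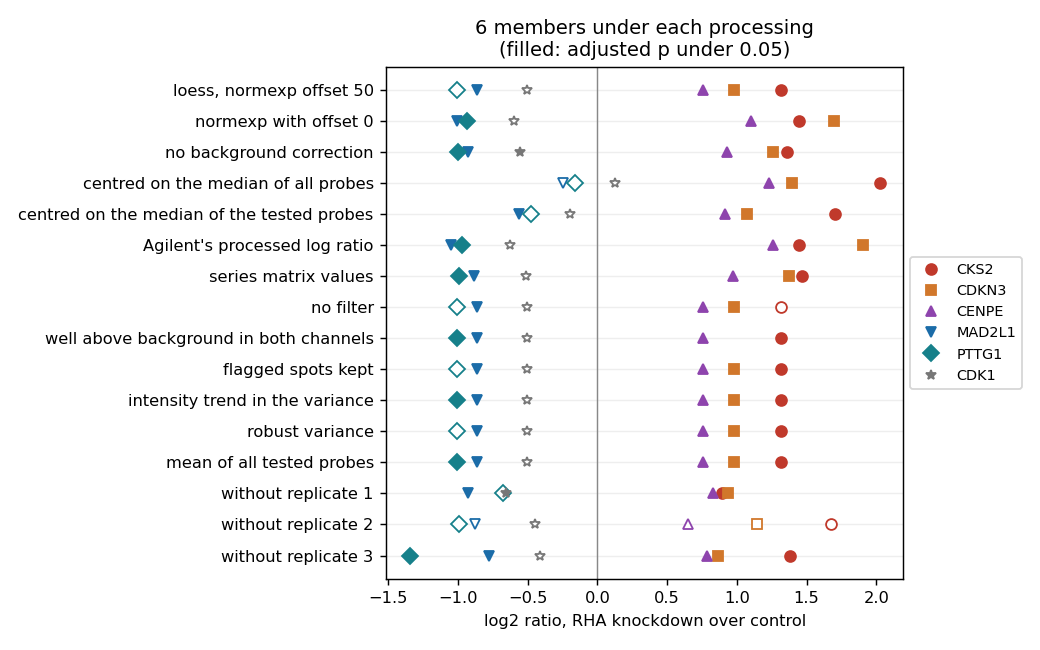
Mean log2 ratio of knockdown over control for 6 messages (symbols) under the main processing (top row) and 15 alternatives, filled where adjusted p was under 0.05. CKS2, CDKN3 and CENPE stay right of 0 wherever they have a value, and CDKN3 has none with both channels required above background. MAD2L1 and PTTG1 stay left of 0 but move toward it under median centring, and CDK1 crosses 0 when all probes set the centre.

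The signs of the 4 called messages were the same in every setting that gave a value, and leaving out arrays could not have turned them, since each had 1 sign on all 3 arrays. The filter settings and the variance models could not have turned them either, since they reused the main ratios. All 4 calls were lost without replicate 2, where limma called 0 of 26 mitotic messages and 0 of 14518 identifiers, with 5 mitotic messages higher and 1 lower at an unadjusted p under 0.05.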

How the data were processed

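Heavy polysome RNA was measured on 3 Agilent arrays of design 014850. Per the file headers, the deposited spot intensity values come from Feature Extraction 10.9.1.1. The submitters' processing notes give version 10.9 and limma without a version. The deposited log10 ratio is Cy5 over Cy3 of Agilent's processed signals, per the file headers. The authors' series table holds log2 ratios of unstated scale and direction, which followed loess-normalized Cy5 over Cy3 (Pearson's r of 0.994 to 0.995 across spots, medians of 0 to 0.01).

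Median intensities were corrected with normexp (offset 50) and loess-normalized in R 4.3.3 with limma 3.58.1, control spots at weight 0. Flagged spots, 142 to 150 of 43376 per array, were left out, no probe spot was saturated, and spots of a probe were averaged. An identifier was tested where all 3 arrays flagged its brightest probe as well above background in the knockdown or the control channel. The mean ratio was tested against 0 (lmFit, eBayes, two-sided), and p-values were adjusted after Benjamini and Hochberg over all identifiers tested. The number of arrays limits the precision. Channel signals are given after Aquantile scaling and include the offset. The code was tested on simulated data. Named genes were all members and RHA, with values per array for called members, RHA and related pairs. Because the files pair no symbols with identifiers, calls of further lists are counts, except the 4 of the further G2 and mitosis list; pairs with AURKA or the second CDC25B identifier had no value. Members and lists were chosen with earlier results of these data known. Probe and transcript sequences were not used here.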

Additional observations from a re-analysis of the deposited data

How the results depend on the processing

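The 15 alternatives changed the background correction, normalization, filter, flags, variance model, source of the values or probe per identifier, or left out a replicate. Of the values of single members under the alternatives, 329 kept their direction and side of the threshold, 23 passed newly, 6 no longer passed, and 28 changed sign without a call. The filter settings, the intensity trend and the robust variance reused the main log2 ratios, so direction could not change there. The main counts were 1437 identifiers higher and 1355 lower, with 3 mitotic messages higher and 1 lower. Offset 0 gave 2315 identifiers higher, with 5 members higher and 2 lower. No background correction gave 3 members lower. Centring on all probes gave 2747 identifiers higher and 46 lower, 6 members higher and 0 lower, with a member median of 0.34. Centring on the tested probes gave 2459 and 891 identifiers and 5 members higher. Agilent's processed log ratio gave 2308 identifiers higher, 5 members higher, 2 lower and a member median of 0.041, and the series table gave 2 members lower and a median of 0.027. No filter gave 829 and 821 identifiers with 32695 tested. Requiring both channels above background gave 2 members lower, as did the mean of all tested probes. The intensity trend gave 2341 and 2125 identifiers, with 5 members higher and 2 lower. Leaving out a replicate gave 0 to 1327 identifiers higher, 0 to 1365 lower, 0 to 4 members higher and 0 to 2 lower, the 0 in each case without replicate 2, where 1755 and 1687 identifiers had an unadjusted p under 0.05. Without replicate 1 the counts were 902 identifiers higher and 807 lower. The member median ran from -0.046 to 0.020 over these fits. What caused the differences between settings was not tested. Each array holds its own knockdown and control pair, so the test of the mean ratio against 0 was already paired. The arrays form 1 group.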
